A study of Mus musculus with 9 samples.

Results

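Circular RNAs (circRNAs) of 3 gene clusters for drug metabolism were sought among the probes of a mouse circRNA array, and 3 were found, all in the Ugt2 cluster. Members were the position-named circRNA probes lying wholly inside 1 of 3 windows of mouse genome build mm9: the Cyp3a window (chromosome 5, 146200000 to 147000000), the Ugt2 window (chromosome 5, 87300000 to 88020000) and the Ugt1a window (chromosome 1, 89980000 to 90120000). Of 30534 circRNA probes on the array, 14043 are named by position; 3 of these lie in the Ugt2 window, 0 in the Cyp3a window and 0 in the Ugt1a window. The Cyp3a and Ugt1a clusters are therefore described here only by the absence of a position-named probe. The other circRNA probes carry a number or code with no position, so whether any of them belongs to these clusters was not determined.

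The arrays held liver RNA of male wild-type C57BL/6J mice aged 20 weeks, in 3 groups. Metformin mice were fed a high fat diet (45% of energy from fat) for 17 weeks, with metformin at 3 mg per kg per day by gavage in the last 5 weeks. High fat diet mice had the same 17 weeks of diet, with saline by gavage in the last 5 weeks. Control mice had 17 weeks of chow, and no gavage is listed for them, so diet and gavage cannot be told apart in comparisons with control. There were 3 arrays per group, each with liver of 4 mice pooled, so the spread between arrays is one between pools and not between single mice. RNA was treated with RNase R, which degrades linear RNA, before Cy3 labelling. In whole liver RNA, fewer cells of a type and less RNA per cell cannot be told apart. The files used here pair no probe with a host gene, so the tissue could not be checked against liver marker genes and no circRNA was assigned to a gene.

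Cyp3a genes encode cytochrome P450 enzymes of the endoplasmic reticulum that oxidise drugs, steroids and bile acids in hepatocytes. Ugt genes encode UDP-glucuronosyltransferases, which attach glucuronic acid to such compounds or their oxidised products and so make them soluble enough to leave in bile or urine; Ugt1a1, for instance, conjugates bilirubin. A circRNA forms when a downstream splice donor is joined back to an upstream acceptor, and the 2 genomic positions so joined are its back-splice ends. In the mouse gene table of the later build GRCm38, used for names and order only, the protein-coding Ugt2 genes of chromosome 5 come in the order Ugt2b34, Ugt2b1, Ugt2b35, Ugt2b36, Ugt2b5, Ugt2b37, Ugt2a3, Ugt2b38, Ugt2a1 and Ugt2a2. The Ugt2b enzymes conjugate steroids and many drugs, and Ugt2a1 is known from the olfactory epithelium. The same table lists, besides Cyp3a13, 8 protein-coding Cyp3a genes on chromosome 5, among them Cyp3a11, a main drug-oxidising Cyp3a enzyme of mouse liver, and 9 protein-coding Ugt1a genes on chromosome 1.

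The 3 circRNAs of the Ugt2 window are nested and share their lower end, at position 87320253. The shortest circle runs to 87334049 and spans 13796 bp, the middle circle runs to 87338233 and spans 17980 bp, and the longest circle runs to 87346749 and spans 26496 bp. The median span of all 14043 position-named circRNAs was 8108 bp, and 4.66% of them had a longer span than the longest circle here. A back-splice end shared by 3 or more position-named circRNAs occurred 664 times on the array, so that the arrangement is not confined to this window. Since the circles share an end, their probes may share sequence and are not independent of each other; the probe sequences were not used here. The rest of the Ugt2 window, above 87346749, held no position-named probe. The nearest ones outside ended 41496 bp below the window and began 1023966 bp above it. For scale, chromosome 5 cut into 212 bins of the window's width (720000 bp) held a median of 3 position-named circRNAs per bin, and 63 bins held 0.

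**Figure D1:**
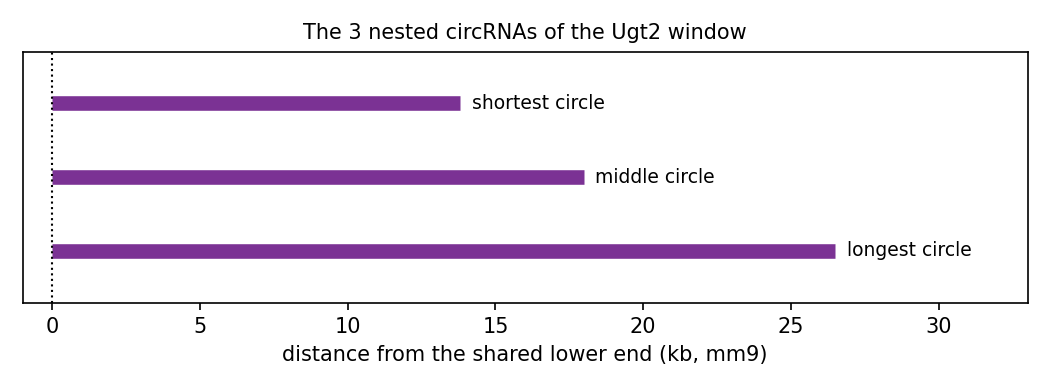
Extent of the 3 circRNAs of the Ugt2 window, drawn as distance in kb (mm9) from the back-splice end they share. Each bar is 1 circle; they span 13796, 17980 and 26496 bp.

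All 3 circles gave a strong signal. Each was measured by 1 spot per array, and each spot was well above background and unsaturated on all 9 arrays. Processed intensities over the 9 arrays were 11164 to 15406 for the shortest circle, 10201 to 13809 for the middle one and 14156 to 22072 for the longest, where the 75th percentile of an array lay between 722.8 and 1053 intensity units. The scanner software flagged some bright spots as uneven: 3 of the 27 member spots (metformin replicate 2 and control replicate 3 for the shortest circle, and high fat diet replicate 1 for the middle one). The share of bright spots flagged differed by array, from 0.63% in high fat diet replicate 2 to 11.6% in high fat diet replicate 1. Flagged spots were left out of levels and tests, and values with them kept, an alternative chosen after the data were seen, stand beside the results. Levels are in log2 units above the array's 75th percentile.

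For the shortest circle the level was 4.04 and 4.29 in metformin replicates 1 and 3. It was 4.20, 3.71 and 4.13 in high fat diet replicates 1, 2 and 3, and 3.73 and 3.9996 in control replicates 1 and 2. High fat diet replicate 2 was the lowest array of all, and the high fat diet values overlapped those of both other groups. The 2 metformin values were above the 2 control values. The mean was 4.16 ± 0.179 with metformin (SD, n = 2), against 4.01 ± 0.263 in high fat diet pools (SD, n = 3) and 3.87 ± 0.188 in control pools (SD, n = 2). With the flagged spots kept, the 3 metformin arrays stood at 3.95, 3.84 and 4.26, the 3 high fat diet arrays at 4.12, 3.71 and 4.12, and the 3 control arrays at 3.697, 3.96 and 4.08. All groups then overlapped.

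The middle circle stood at 3.78, 3.98 and 4.004 in the metformin arrays. On the high fat diet it stood at 3.51 and 3.94 in replicates 2 and 3, and in controls at 3.66, 3.91 and 3.91. Again high fat diet replicate 2 was the lowest array and the ranges of the 3 groups overlapped. The flagged spot, of high fat diet replicate 1, read 4.09 with flagged spots kept, the highest value of this circle on any array. Its mean was 3.92 ± 0.121 with metformin (SD, n = 3), against 3.73 ± 0.308 in high fat diet pools (SD, n = 2) and 3.83 ± 0.144 in control pools (SD, n = 3).

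The longest circle, with no flagged spot, stood at 4.35, 4.45 and 4.39 in the metformin arrays. It stood at 4.20, 4.08 and 4.65 in the high fat diet arrays and at 4.16, 4.56 and 4.51 in the control arrays. The metformin values lay inside the range of each other group. Its mean was 4.39 ± 0.0526 with metformin, against 4.31 ± 0.299 in high fat diet pools and 4.41 ± 0.219 in control pools (SD, n = 3 each).

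**Figure D2:**
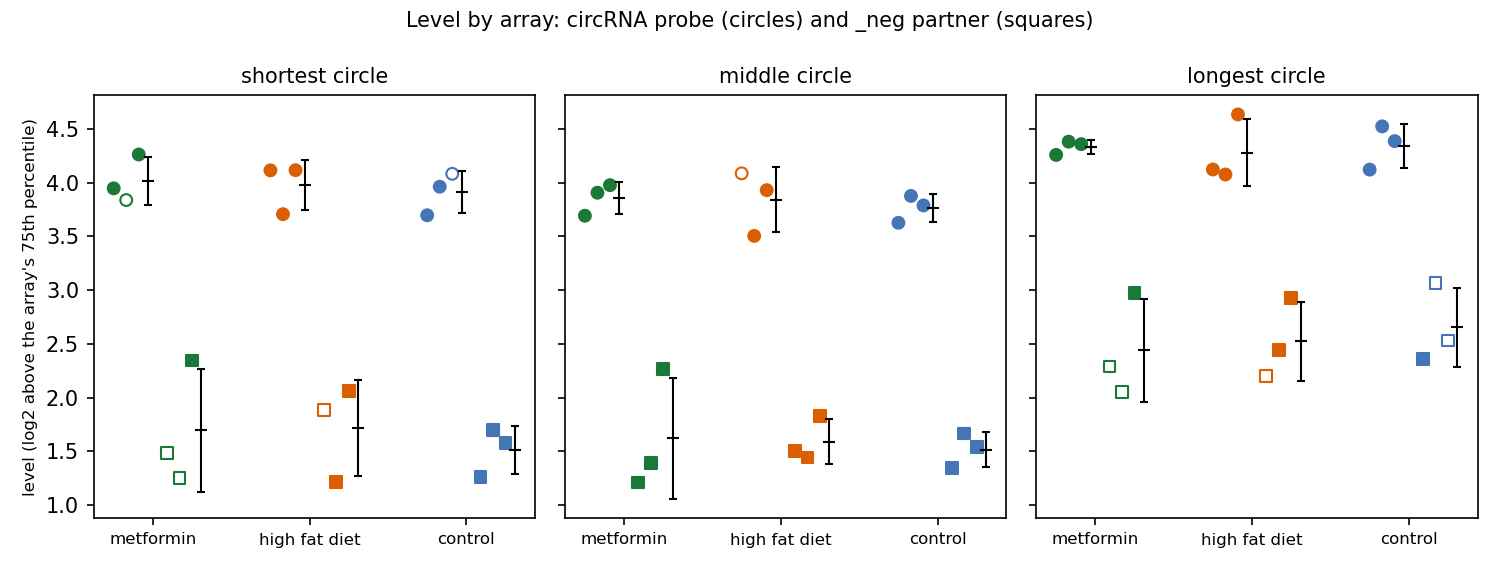
Level of each circle's probe (circles) and of its _neg partner (squares) by group, in log2 units above the array's 75th percentile, with flagged spots kept and drawn open. Each point is 1 array, replicates 1 to 3 from left to right, and the bars are mean ± SD (n = 3). For every circle the groups overlap, and the circRNA probe is above its partner on every array.

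Metformin was set against the high fat diet alone to ask what the drug did on the same diet. None of the 3 circles was called (limma with the 3 groups in 1 fit, adjusted p under 0.05), against 0% of 25828 circRNAs tested; 0 had an unadjusted p under 0.05, against 3.9%; and with flagged spots kept 0 had groups that did not overlap, against 7.87% of 25864. The log2 difference (metformin minus high fat diet) was 0.15 ± 0.194 (SE) for the shortest circle, from 2 metformin and 3 high fat diet arrays (limma, adjusted p = 0.969). It was 0.19 ± 0.176 for the middle circle, from 3 metformin and 2 high fat diet arrays (limma, adjusted p = 0.969). For the longest circle it was 0.08 ± 0.171, from 3 arrays of each group (limma, adjusted p = 0.974). All 3 point estimates were above 0; those of the shortest and longest circle were below their SE and that of the middle circle was above it. The 95% intervals as folds ran from 0.822 to 1.499 for the shortest circle, from 0.874 to 1.497 for the middle one and from 0.818 to 1.37 for the longest. With flagged spots kept the differences were 0.04, 0.02 and 0.05. Without high fat diet replicate 2 the differences were -0.00015, -0.02 and -0.03. The median over the 3 circles was 0.15, against 0.03 over all circRNAs tested. That median was -0.023 without high fat diet replicate 2, 0.25 without high fat diet replicate 3, 0.26 without metformin replicate 1 and 0.089 without metformin replicate 3.

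The high fat diet was set against control to ask what differed after 17 weeks of the diet. This comparison holds array column in part. Control arrays and high fat diet replicate 1 were in column 1, and high fat diet replicates 2 and 3 in column 2. Again 0 of the 3 circles were called by limma, against 0% of 25777 circRNAs tested; 0 had an unadjusted p under 0.05, against 7.25%; and with flagged spots kept 0 had groups that did not overlap, against 12.3%. The shortest circle had a log2 difference (high fat diet minus control) of 0.15 ± 0.194, from 3 high fat diet and 2 control arrays (limma, adjusted p = 0.901; 95% interval 0.819 to 1.49 as a fold). The middle circle stood at -0.10 ± 0.176, from 2 high fat diet and 3 control arrays (limma, adjusted p = 0.927; 0.711 to 1.22). The longest stood at -0.10 ± 0.171 (limma, adjusted p = 0.928; 0.721 to 1.21). The signs were mixed, and the middle circle's sign turned once flagged spots were kept: the differences were then 0.07 for the shortest, 0.08 for the middle and -0.07 for the longest circle. With array column as a covariate, flagged spots left out, the differences were 0.32, 0.02 and -0.16 in the same order. Without high fat diet replicate 2 the median over the 3 circles was 0.11, against -0.10 with it; over all circRNAs tested the median was -0.06. It was -0.27 without high fat diet replicate 3, -0.045 without high fat diet replicate 1, and -0.19, -0.023 and -0.049 without control replicates 1, 2 and 3. High fat diet replicate 2 had 71.8% of all probes well above background, where the 9 arrays ranged from 69.4% to 84.3%. It also had the highest 75th percentile, 1053 intensity units, which is subtracted in log2 units to give its levels. Its processed intensities were not the lowest, at 13785, 11981 and 17807 for the shortest, middle and longest circle. Over the 9 arrays the lowest were 11164, 10201 and 14156. The part of the percentile and of the share of probes in that array's low levels was not tested.

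Metformin was also compared with control, a difference that holds diet, gavage and drug together and shares arrays with both other comparisons. On the first slide it also holds array column, since control arrays were in column 1 and metformin arrays in column 2. None of the 3 circles was called by limma, against 0% of 25763 circRNAs tested; 0 had an unadjusted p under 0.05, against 5.07%; and with flagged spots kept 0 had groups that did not overlap, against 12.6%. Without flagged spots the shortest circle's 2 metformin values were above its 2 control values, as given above. The log2 difference (metformin minus control) was 0.30 ± 0.212 for the shortest circle, from 2 arrays of each group (limma, adjusted p = 0.9998; 0.884 to 1.71 as a fold), and 0.10 ± 0.1697 with flagged spots kept. It was 0.09 ± 0.157 for the middle circle (limma, adjusted p = 0.9998; 0.837 to 1.36). For the longest it was -0.01 ± 0.171 (limma, adjusted p = 0.99996; 0.764 to 1.28). With flagged spots kept the middle and longest circles stood at 0.09 and -0.01. The median over the 3 circles was 0.09, against -0.03 over all circRNAs tested. That median was 0.0083 without control replicate 1, 0.16 without metformin replicate 1 and 0.0497 without metformin replicate 3.

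**Figure D3:**
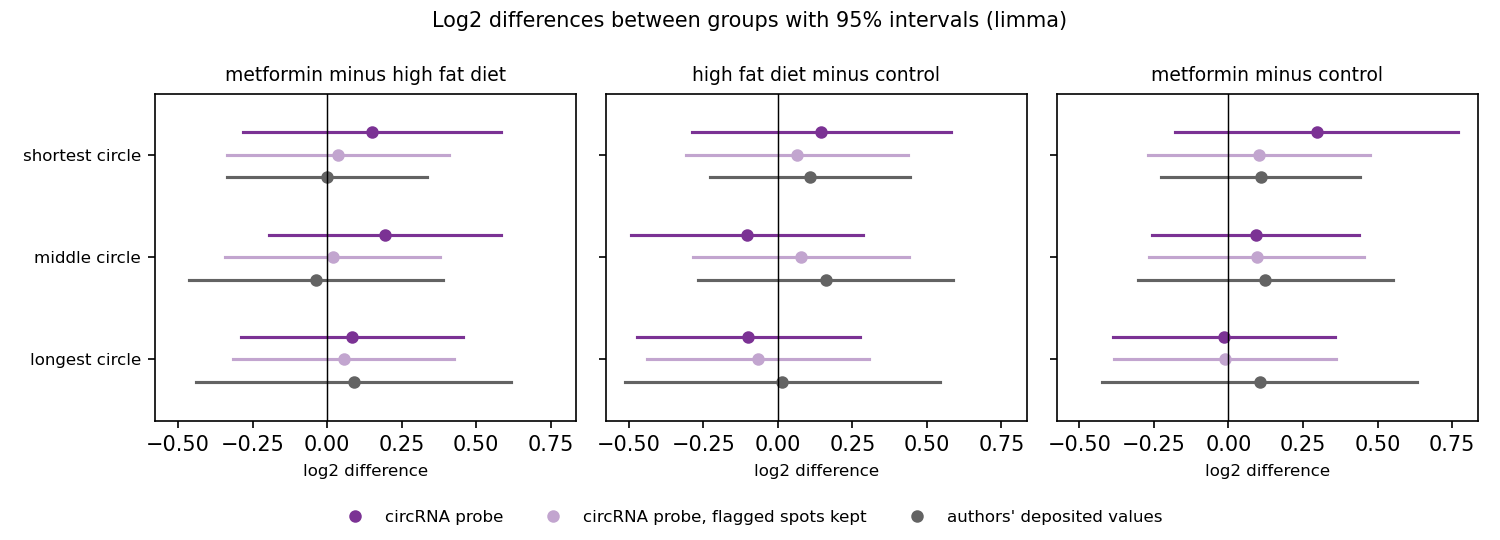
Log2 differences between groups for the 3 circles with 95% intervals (limma), from circRNA probes without flagged spots, from the same with flagged spots kept, and from the authors' deposited values. Every interval includes 0.

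The authors' deposited log2 values, which follow the difference between a circRNA probe and its partner by rank, gave no call for the 3 circles. Over all 25864 circRNAs, limma on those values called 0.0541% for metformin minus high fat diet, 0.058% for high fat diet minus control and 0.0889% for metformin minus control. In the authors' deposited table the shortest circle averaged 13.4 ± 0.0759 with metformin, 13.4 ± 0.199 in high fat diet pools and 13.3 ± 0.217 in control pools (SD, n = 3 each). In the authors' deposited table the middle circle averaged 13.2 ± 0.144 with metformin, 13.2 ± 0.356 in high fat diet pools and 13.1 ± 0.0716 in control pools. The longest averaged 13.6 ± 0.270 with metformin, 13.5 ± 0.369 in high fat diet pools and 13.5 ± 0.153 in control pools. On these values the 9 differences lay between -0.04 and 0.16, each less than its standard error.

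Every circRNA probe on the array has a partner probe of the same name with the ending _neg. No source used here says what the partners bind, so they are given only as a paired reading. For all 3 circles the circRNA probe was the brighter of the pair on each of the 9 arrays. The partner had the higher mean for 22.0% of all circRNAs, so for most circRNAs the circRNA probe was the brighter by mean. The share of all circRNAs with the brighter probe on each array is not given here. Before any spot was left out, the intensity ratio of circRNA probe to partner was 3.78 to 5.996 for the shortest circle, 3.28 to 6.01 for the middle one and 2.61 to 5.03 for the longest. The partners were themselves well above background on all 9 arrays.

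The lowest ratio of each circle fell on the same array, metformin replicate 3. There the ratio was 3.78, 3.28 and 2.61 for the shortest, middle and longest circle, against 5.996, 5.71 and 5.03 in metformin replicate 2. The partners of the shortest and middle circle had their highest level of the 9 arrays there, at 2.34 and 2.26 log2 units above the 75th percentile with flagged spots kept. The partner of the longest stood at 2.98, second to control replicate 2 at 3.06. The circRNA probes were not low on that array. Metformin replicate 3 was the only array on the second slide and was scanned separately. It also had the lowest share of probes well above background (69.4%) and the lowest median log2 ratio of circRNA probe to partner over all circRNAs tested, at 0.84 where the other arrays lay between 0.89 and 0.96. Their part in the low ratios was not tested, and the slide and this pool cannot be told apart.

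**Figure D4:**
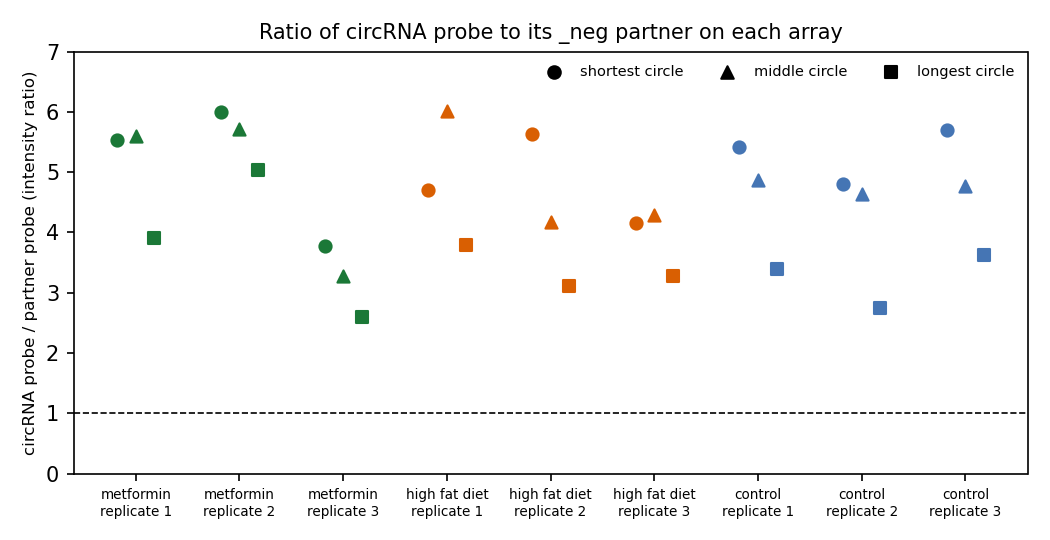
Intensity ratio of circRNA probe to _neg partner for the 3 circles on each array, flagged spots included; the dashed line marks equal brightness. All 27 ratios are above 1, and metformin replicate 3 has the lowest value of each circle.

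For the log2 ratio of probe to partner without flagged spots, limma called 0 of the 3 circles and 0% of all circRNAs tested in each comparison. An unadjusted p under 0.05 was held by 0 of the 3 circles in each, against 4.53% of all circRNAs for metformin minus high fat diet, 5.05% for high fat diet minus control and 5.97% for metformin minus control. With flagged spots kept, so that all 9 arrays counted, the middle circle's ratio was 2.24 ± 0.454 with metformin, 2.25 ± 0.293 in high fat diet pools and 2.25 ± 0.0362 in control pools (SD, n = 3 each). The longest circle's ratio was 1.89 ± 0.478 with metformin, 1.76 ± 0.147 in high fat diet pools and 1.69 ± 0.206 in control pools, and its difference between metformin and control was 0.20 ± 0.232 (SE; limma, adjusted p = 0.939). Without flagged spots, partners of the longest circle kept 1 metformin array (replicate 3), 2 high fat diet arrays and 1 control array (replicate 1). The difference then changed sign to -0.38. For this circle 5 of 9 partner spots were flagged.

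Taking each array's deviation from its group mean, with flagged spots kept, the 3 pairs of circles correlated at 0.485 to 0.768, with a mean of 0.593 (Pearson r over 9 arrays). High fat diet replicate 2 was below its group mean for all 3 circles, by -0.27, -0.34 and -0.20, and high fat diet replicate 3 above it, by 0.14, 0.09 and 0.36. Control replicate 1 was below for all 3 as well, by -0.22, -0.14 and -0.22. The 3 circles deviated the same way on 7 of 9 arrays. They split in high fat diet replicate 1, at 0.14, 0.25 and -0.16 for the shortest, middle and longest, and in metformin replicate 2, at -0.18, 0.048 and 0.049. Other sets of 3 tested circRNAs that share an end had a median of 0.352 for the same mean correlation, with quartiles of 0.132 and 0.612 over 407 sets, so that the Ugt2 set lay between these quartiles. The correlation is a description over circles that share arrays and an end, and possibly probe sequence.

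**Figure D5:**
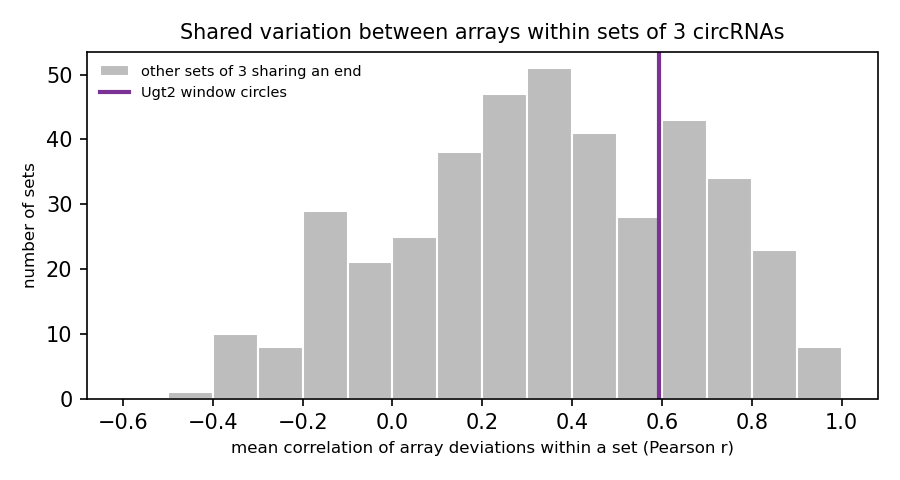
Mean Pearson correlation of array deviations within sets of 3 circRNAs sharing a back-splice end, for 407 other sets (bars, number of sets) and for the Ugt2 window circles (line at 0.593). The line falls inside the quartiles of the other sets, 0.132 and 0.612.

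A window over the Cyp2c cluster, another large group of liver P450 genes, was read for comparison (on chromosome 19, with bounds set from general knowledge of mm9 and not from a file). It held 7 position-named circRNAs, of which 5 passed the filter on dim probes. For the high fat diet against control these 5 had a median log2 difference of -0.76 (-0.86 to -0.66), 4 of them with an unadjusted p under 0.05 (against 7.25% of all circRNAs) and 0 called (limma), where the Ugt2 circles had a median of -0.10. For metformin against the high fat diet their median was -0.34 (-0.46 to -0.25), with 0 of 5 at an unadjusted p under 0.05 (against 3.9%) and 0 called, where the Ugt2 circles had 0.15. For metformin against control it was -1.19 (-1.22 to -0.95), with 5 of 5 (against 5.07%) and 0 called, where the Ugt2 circles had 0.09. These comparisons share arrays. The 5 circRNAs lie in the same window and cannot be taken as independent of each other, so their counts are not separate results. Their values under the alternative settings are not given here. Whether the clusters differ was not tested.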

How the data were processed

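All 9 arrays (1 colour) were used. Agilent Feature Extraction read the spots, in version 11.5.1.1 on an mm9 grid per the file headers and in version 10.7 per the submitters' processing notes. The deposited intensity is background-subtracted and detrended within each array per the file headers, not scaled between arrays. A second deposited table holds the authors' log2 value of each circRNA. By rank these values follow the intensity of circRNA probe minus partner (Spearman correlation 1 above the floor of -3.32), with the same median of 6.51 on each array. No source used here tells how that floor arose.

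Processed intensities were brought to log2, spots flagged as outliers were left out, and spots of a probe were averaged. The 75th percentile over all probes other than controls was then subtracted. CircRNAs whose probe was well above background throughout 1 or more groups were tested (25864 of 30534; all 3 members passed). A single limma 3.58.1 fit held the 3 groups (R 4.3.3; lmFit, eBayes), with Benjamini-Hochberg adjustment over all circRNAs tested and a threshold of 0.05. The number of arrays limits the precision. The fit was tested on simulated data. The alternatives were normexp (offset 50) with 75th percentile scaling or quantile normalization, other filters and variance models, array position, the replicate number as a block, the deposited values, the ratio to the partner, and each array left out. Of these, 4 were added after the data were seen: flagged spots kept, for levels and for ratios, the percentile taken over all spots with flagged ones included, and a stricter limit on missing values. The last 2 were the first settings run; they were replaced by the planned scaling, which leaves flagged spots out, and by the limit used in earlier work on these data. Normexp used the median spot intensity, since the files hold no mean intensity. Same-numbered arrays did not deviate together (correlations of -0.158 to 0.193), so the replicate numbers were not taken as pairs. The naming rule came down to all 3 members. The members and windows were chosen with earlier results of these data known.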

Additional observations from a re-analysis of the deposited data

How the results depend on the processing

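None of the 3 circles was called, and none had an unadjusted p under 0.05, in any of the 3 comparisons under any alternative run. Signs turned under some alternatives. For high fat diet minus control, the shortest circle turned to -0.075 with the log2 ratio to the partner probe (-0.14 with flagged spots kept). The middle circle turned to 0.022 with the array column as a covariate, 0.077 with flagged spots kept, 0.0019 for the ratio with flagged spots kept and 0.16 with the authors' deposited values. The longest turned to 0.064 for the ratio with flagged spots kept, 0.062 with normexp with quantile normalization and 0.015 with the deposited values. For metformin minus control, the ratio turned the shortest to -0.43 (-0.080 with flagged spots kept) and the middle to -0.012 in both. The longest turned to 0.20 for the ratio with flagged spots kept, 0.023 with normexp with quantile normalization and 0.10 with the deposited values. For metformin minus high fat diet, the sign turned for the ratio, to -0.36 (shortest) and -0.29 (longest), and -0.014 (middle) with flagged spots kept. It also turned with normexp with quantile normalization (-0.013 shortest, -0.039 longest) and the deposited values (-0.00061 shortest, -0.037 middle). The ratio drops flagged spots, which left 1 metformin array (replicate 3) for the shortest and longest circles. The median over the 3 circles moved to -0.38 for metformin minus control and -0.29 for metformin minus high fat diet. With flagged spots kept it was -0.012 and 0.062. The cause was not tested. Over all circRNAs, limma made 0 calls in each comparison as reported, and over the alternatives 0 to 19 for high fat diet minus control, 0 to 14 for metformin minus high fat diet and 0 to 23 for metformin minus control, none of them one of the 3 circles.

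Leaving out 1 array at a time gave 0.01 to 0.30 (shortest), -0.32 to 0.11 (middle) and -0.27 to 0.017 (longest) for high fat diet minus control, with a median over the circles of -0.27 to 0.11. It gave 0.16 to 0.43, 0.0083 to 0.16 and -0.14 to 0.061 for metformin minus control (median 0.0083 to 0.16). For metformin minus high fat diet it gave -0.00015 to 0.28, -0.023 to 0.41 and -0.031 to 0.25 (median -0.023 to 0.26). With the replicate block the differences ranged from -0.18 to 0.27 and no call changed (limma, smallest adjusted p = 0.891). The first slide's column 2 had 2 metformin and 2 high fat diet arrays (1 unflagged metformin array for the shortest circle). Metformin differences there were 0.12, 0.15 and 0.04. Column 1 had 3 control arrays (2 unflagged for the shortest) and 1 high fat diet array, assumed to vary like the rest. Diet differences there were 0.33 for the shortest and -0.21 for the longest circle. The middle circle had no unflagged high fat diet value there, and no column held both metformin and control arrays on the first slide. The Cyp3a and Ugt1a windows, with 0 members, gave no median. The slide as a block is the fit without metformin replicate 3.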
